A study of Mus musculus with 13 samples.

Results

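The genes of MHC class I and class II antigen presentation were followed across 6 mouse mammary tumours and 4 wild-type mammary glands. The set held every gene whose symbol starts with H2- apart from 4 pseudogenes, together with B2m, Tap1, Tap2, Tapbp, Nlrc5, Ciita and Cd74. That gave 41 of the 38279 symbols in the count table, of which 29 belong to the class I pathway and 11 to the class II pathway. The last member, H2-Ke6, carries the name of the region but encodes a hydroxysteroid dehydrogenase. The genes were taken by name, with earlier results of these data known.

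RNA was extracted from whole tissue, as dissected glands or tumours, and each library was one tissue sample. The tumours came from Cre-positive mice and the glands from Cre-negative mice, and both kinds of mice had been mated at 12 weeks of age, the step by which FBXW7 excision was induced. Fbxw7 encodes the substrate-recognition subunit of a ubiquitin ligase that marks Myc, cyclin E and Notch proteins for degradation. Glands 1 to 3 were collected at 20 weeks of age and gland 4 at 40 weeks, and tumours 1 to 6 at 25, 32, 39, 19, 53 and 25 weeks. The labels give neither the promoter of the Cre transgene nor the strain, and they do not state that each library is a different animal, so a p-value here measures the spread between these libraries. The series holds 13 samples, and the 3 purified epithelium samples were not analysed here.

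MHC class I molecules show peptides made inside a cell to CD8 T cells. They consist of a heavy chain and the invariant light chain beta-2 microglobulin, and are loaded in the endoplasmic reticulum with peptides carried in by the TAP transporter. MHC class II molecules show peptides from endosomes to CD4 T cells and are made mainly by B cells, dendritic cells and macrophages, with CIITA as their master regulator and the invariant chain CD74 as their chaperone. In mammary tissue both can be raised in epithelial cells by interferon gamma, while resident leukocytes carry much of class II.

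The start regions of 2 class I and 2 class II genes are shown because they hold the motifs through which the classes are known to be controlled. Each runs from 200 bases before to 10 bases after the RefSeq start, 5′ to 3′ on the gene's strand, in the build GRCm38.p6. H2-K1 lies at chr17:34000324-34000533 on the minus strand and H2-D1 at chr17:35262894-35263103 on the plus strand. H2-Aa lies at chr17:34287814-34288023 on the minus strand and H2-Eb1 at chr17:34305667-34305876 on the plus strand. Capitals mark the Y box CTGATTGG, read on either strand (its reverse complement is CCAATCAG), and, in the 2 class I genes, the kappaB motif, the longer capital run that opens with GGGG, also searched on both strands.
H2-K1: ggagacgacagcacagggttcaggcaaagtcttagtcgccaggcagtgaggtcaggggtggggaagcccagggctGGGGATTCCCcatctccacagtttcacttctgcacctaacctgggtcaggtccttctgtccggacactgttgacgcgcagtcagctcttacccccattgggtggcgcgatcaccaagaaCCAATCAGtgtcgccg
H2-D1: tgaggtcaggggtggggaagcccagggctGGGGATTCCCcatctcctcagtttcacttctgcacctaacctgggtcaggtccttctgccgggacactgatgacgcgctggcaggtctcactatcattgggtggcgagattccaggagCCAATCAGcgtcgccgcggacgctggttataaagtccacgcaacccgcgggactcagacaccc
H2-Aa: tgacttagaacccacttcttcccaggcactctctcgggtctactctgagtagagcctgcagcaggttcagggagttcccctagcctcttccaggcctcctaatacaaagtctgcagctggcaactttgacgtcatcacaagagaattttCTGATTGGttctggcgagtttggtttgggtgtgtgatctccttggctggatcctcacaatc
H2-Eb1: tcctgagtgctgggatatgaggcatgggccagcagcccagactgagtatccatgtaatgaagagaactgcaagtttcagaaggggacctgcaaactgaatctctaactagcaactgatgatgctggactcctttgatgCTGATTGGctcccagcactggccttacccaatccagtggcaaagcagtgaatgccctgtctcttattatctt

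Of the 41 members, 30 had a RefSeq promoter window of 300 bases. The Y box, the site of the factor NF-Y, was present in 10 of 21 class I windows and 4 of 8 class II windows, against 4.1% of 32851 windows of that length. The kappaB motif, a site of NF-kappaB, was present in 4 of 21 class I windows (H2-K1, H2-D1, H2-Q6 and H2-Q7), in 0 of 8 class II windows and in 0.107% of all windows. The motifs do not overlap each other in the windows shown, and a match describes letters and not binding.

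The libraries held between 13723065 counts (gland 3) and 48353114 counts (gland 2). Levels are given in CPM, each gene's count as a share of its library's total in the usual unit, scaled by the trimmed mean of M values (TMM), a method that sets libraries on a common scale. Fbxw7 stood between 14.3 and 83.6 CPM in the glands and between 15.1 and 47.3 CPM in the tumours, and since the excised exons are not given in the labels, a count over the whole gene does not check the excision. Salivary gland transcripts made up 50.3% of all counts in tumour 1 and 18.6% in tumour 6. In gland 4, mitochondrial transcripts made up 37.5% and skeletal muscle transcripts 7.55%. All 7 adipocyte markers tested fell in the tumours and 9 of 11 luminal epithelial markers rose, in edgeR's quasi-likelihood test with Benjamini-Hochberg adjustment. By the same test 5 of 9 skeletal muscle markers and 1 of 6 fibroblast markers fell. Of all genes tested, 8.19% fell and 6.89% rose.

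No class I member and no class II member differed between tumours and glands at an adjusted p of 0.05. edgeR's quasi-likelihood test called 0 of 23 class I members and 0 of 10 class II members, while it called 15.1% of the 20101 genes tested. At an unadjusted p of 0.05 it counted 0 class I and 2 class II members (H2-Ob and H2-DMb2), against 33.4% of all genes. DESeq2 called 0 class I members and 1 class II member, H2-Ob, and limma-voom called 0 of each. The levels of tumours and glands overlapped for every class I and class II member tested, whereas they did not overlap for 14.0% of all genes. The median log2 difference, tumour minus gland, was −0.52 over class I and −1.26 over class II, with 19 of 23 and 10 of 10 members below 0, beside a median of 0.17 over all genes. Without gland 2 alone the medians were −0.30 and −0.90, and without gland 3 alone −0.34 and −0.97. Without both they were 0.066 and 0.061, in a fit that kept only glands 1 and 4. Summed class I heavy chains were 2434, 2688, 2620 and 454 CPM in glands 1 to 4. Summed class II chains were 491, 1002, 1003 and 133 CPM. No other pair of glands was left out, so the part of gland 4 in this change of direction was not tested.

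The spread within each group was wide. The SD of log2 levels over the 6 tumours had a median of 1.67 among class I members and 1.44 among class II members, against 0.805 over all genes. Over the 4 glands it was 1.38 and 1.60, against 0.585. The median ratio of the highest to the lowest tumour was 17.7 for class I, 16.5 for class II and 4.81 for all genes. These are descriptions of the libraries, and no test was made of them.

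**Figure D1:**
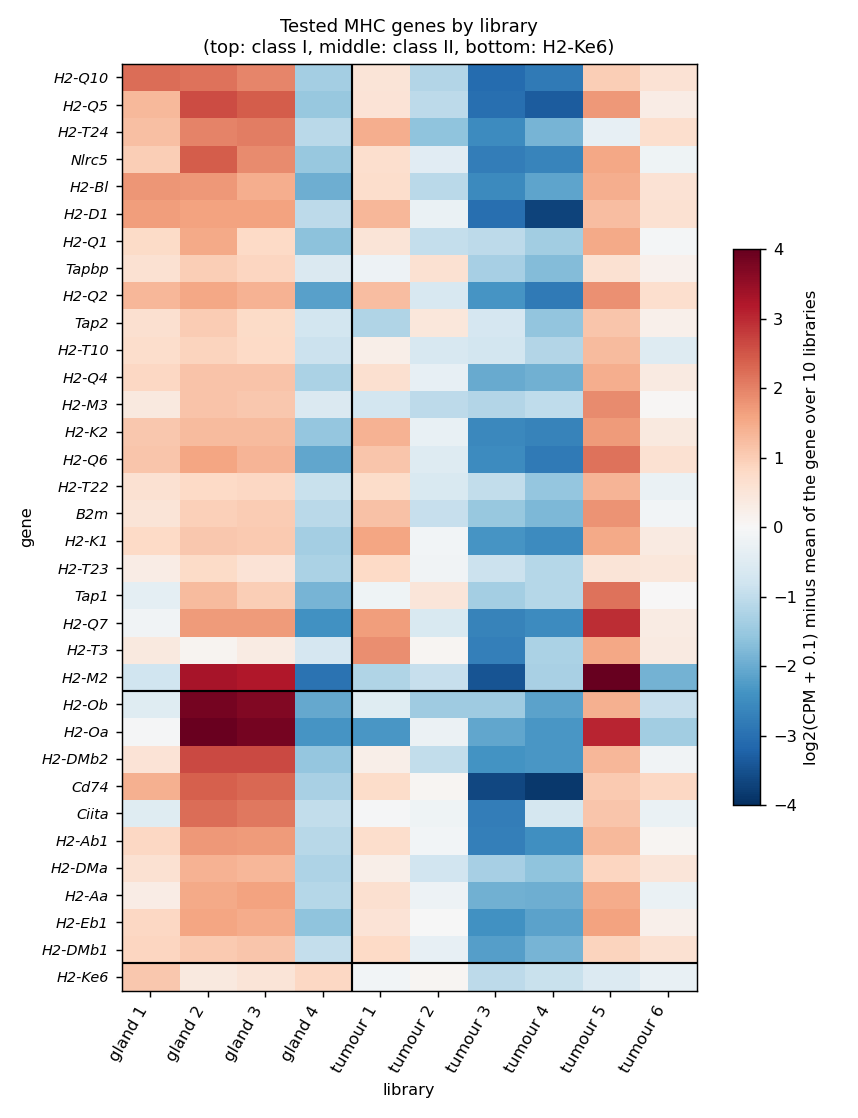
Levels of the tested members (rows) in the 10 libraries (columns), coloured by log2(CPM + 0.1) minus the mean of each gene. Gland 4 and tumours 3 and 4 are low over nearly all class I and class II rows, and tumour 5 is high; gland 4 was the lowest gland for 23 of 23 class I members and 10 of 10 class II members.

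The members stood high or low in the same libraries. Tumour 5 was the highest tumour for 18 of 23 class I members and 10 of 10 class II members, and tumour 1 was highest for the other 5 class I members. Over all genes tumour 5 was the highest tumour for 11.8%. The lowest tumour was tumour 3 or 4 for 23 class I and 9 class II members, against 41.0% of all genes. Gland 4, the gland taken at 40 weeks, was the lowest gland for every tested member of both classes, against 40.0% of all genes. The mean of glands 1 to 3 over gland 4 had a median of 6.29 for class I, 7.13 for class II and 1.07 for all genes. Tumour 5 over tumour 4 had a median ratio of 12.4 for class I and 13.4 for class II, and 11.9 and 12.8 under upper-quartile scaling. In whole tissue, fewer cells of a type and less RNA per cell cannot be told apart.

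For the light chain and the 2 classical heavy chains of class I, tumours 1 and 5 were the 2 highest tumours and tumours 3 and 4 the 2 lowest. B2m, the light chain, measured 1030.5, 1375, 1443 and 340.2 CPM in glands 1 to 4 and 1600.4, 376, 252, 204, 2496 and 658 CPM in tumours 1 to 6. H2-K1, a classical heavy chain, measured 409, 498, 483 and 91.1 CPM in the glands and 697, 217, 46.2, 41.5, 675 and 299 CPM in the tumours. For both, tumours 1 and 5 stood above every gland and tumours 3 and 4 below every gland. Tumour 1, with 50.3% salivary transcripts, had a TMM factor of 0.422, the lowest of the 10 libraries, which raised its scaled levels. Its place against the glands depends on that factor and was not compared under other scalings. The log2 difference was −0.17 (SE 0.75) for B2m and −0.17 (SE 0.80) for H2-K1, with edgeR adjusted p of 0.888 and 0.896.

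H2-D1, the other classical heavy chain, measured 1322, 1268, 1269 and 204 CPM in the glands. In the tumours it measured 1045, 349, 51.2, 32.3, 993 and 634 CPM. All 6 tumours lay below glands 1 to 3, while gland 4 lay among the tumours. Its mean was 1016 ± 541 CPM (SD, n = 4) in glands and 517 ± 447 CPM (SD, n = 6) in tumours, with a log2 difference of −0.97 (SE 0.89, edgeR adjusted p = 0.452).

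**Figure D2:**
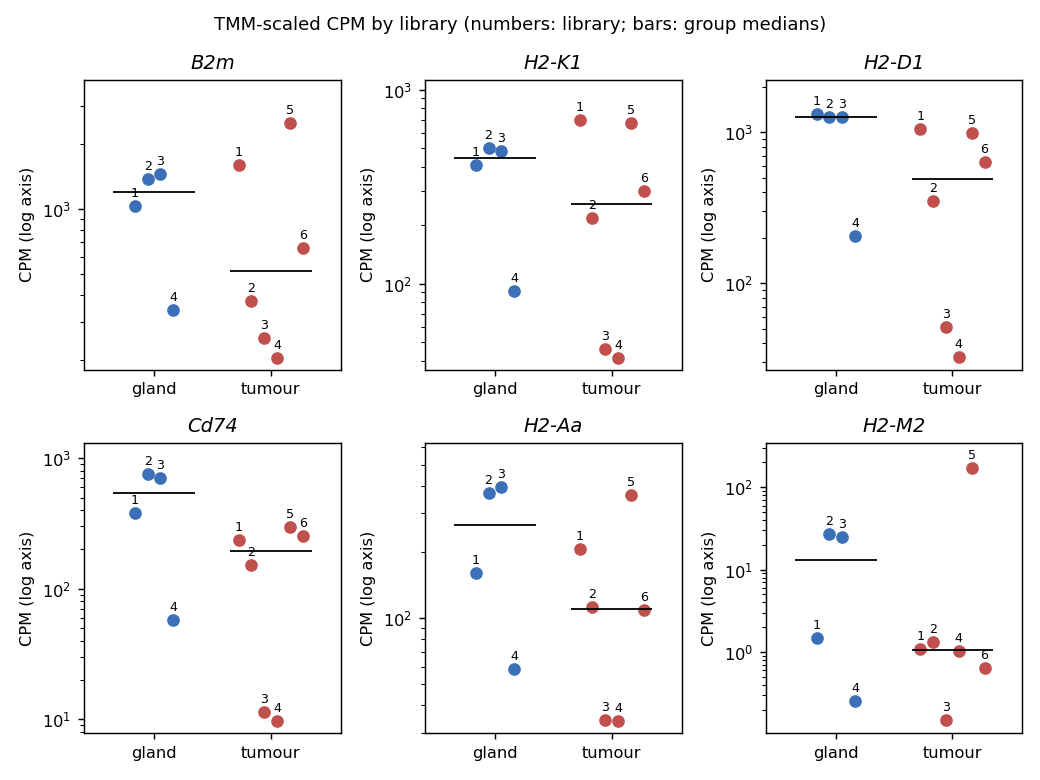
Levels of 6 members in each library on a log10 axis of CPM, with glands and tumours as separate points and a bar at each group median. Tumours 1 and 5 lie above all glands for B2m and H2-K1, all tumours lie below glands 1 to 3 for H2-D1 and Cd74, and H2-M2 reaches 173 CPM in tumour 5 alone.

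In the 5 other class I members of highest mean level, tumours 1 and 5 were again the 2 highest tumours and tumours 3 and 4 the 2 lowest. Their place against the glands differed: for H2-T23 no tumour lay below gland 4, and for H2-Q4 tumour 1 lay below glands 1 to 3. H2-Q4 lay between 36.2 and 194 CPM in the glands and between 21.5 and 239.5 CPM in the tumours (log2 difference −0.52, SE 0.68, edgeR adjusted p = 0.609). H2-T22, a non-classical chain bound by some gamma delta T cells, lay between 41.0 and 135 CPM in the glands and 26.3 and 196 CPM in the tumours. H2-T23 encodes Qa-1, a ligand of the inhibitory receptor NKG2A, and lay between 31.5 and 131 CPM in the glands and 34.9 and 132 CPM in the tumours. H2-K2 and H2-Q6 reached 154 and 124 CPM in tumour 5 and 7.21 and 3.81 CPM in tumour 4. The log2 differences of the last 4 genes lay between −0.39 and −0.16, each with an SE above its size and an edgeR adjusted p of 0.677 or more. Heavy chains are close copies of each other, so the division of reads among H2-K, H2-D, H2-Q and H2-T genes is uncertain and depends on the haplotype of the mice.

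Among the other class I heavy chains tested, the lowest log2 difference was −1.85 (SE 0.85) for H2-Q10, which encodes a secreted class I molecule, with an edgeR adjusted p of 0.152. The highest was 1.14 (SE 1.88, adjusted p = 0.688) for H2-M2, a non-classical chain. H2-M2 measured 1.48, 26.8, 25.0 and 0.254 CPM in the glands and 1.10, 1.33, 0.148, 1.02, 173 and 0.641 CPM in the tumours, so a single tumour held nearly all of its tumour counts. Without tumour 5 its log2 difference was −3.97 and passed the test (edgeR adjusted p = 0.0461). H2-T24 passed without tumours 1 and 6, with a log2 difference of −2.87 and an edgeR adjusted p of 0.0285, against −1.50 and 0.218 over all libraries. Tumours 1 and 6 are the libraries with salivary transcripts, and they were also the highest tumours for H2-T24, at 12.3 and 7.16 CPM. Leaving them out therefore lowers the tumour level of this gene in any case. The part of the salivary transcripts in the call was not tested. H2-Q10, H2-M2 and H2-T24 were singled out after their values were seen.

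The peptide transporter and its partner tapasin had no call either. Tap1, a TAP subunit, measured 19.3, 61.1, 50.6 and 6.99 CPM in the glands and 22.7, 36.1, 10.02, 11.6, 115 and 26.0 CPM in the tumours. Tap2, the other TAP subunit, measured 62.1, 79.1, 66.5 and 23.8 CPM in the glands and 17.1, 54.4, 24.9, 13.1, 84.5 and 45.5 CPM in the tumours. Tapbp encodes tapasin, which holds the empty heavy chain at TAP, and lay between 59.4 and 173 CPM in the glands and 26.6 and 134 CPM in the tumours. The log2 differences were 0.10 (SE 0.75), −0.54 (SE 0.52) and −0.65 (SE 0.49), with edgeR adjusted p of 0.938, 0.482 and 0.357. That of Tap1 turned negative in limma-voom, with age as a covariate and without gland 1, gland 4 or tumour 5, none of them with a call.

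Nlrc5, the transactivator of class I genes, measured 7.25, 19.7, 13.8 and 1.21 CPM in the glands and 5.89, 2.62, 0.445, 0.503, 10.8 and 3.21 CPM in the tumours. It was lowest in tumours 3 and 4 and in gland 4, the libraries in which the heavy chains were lowest. Its log2 difference was −1.43 (SE 0.90, edgeR adjusted p = 0.278).

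**Figure D3:**
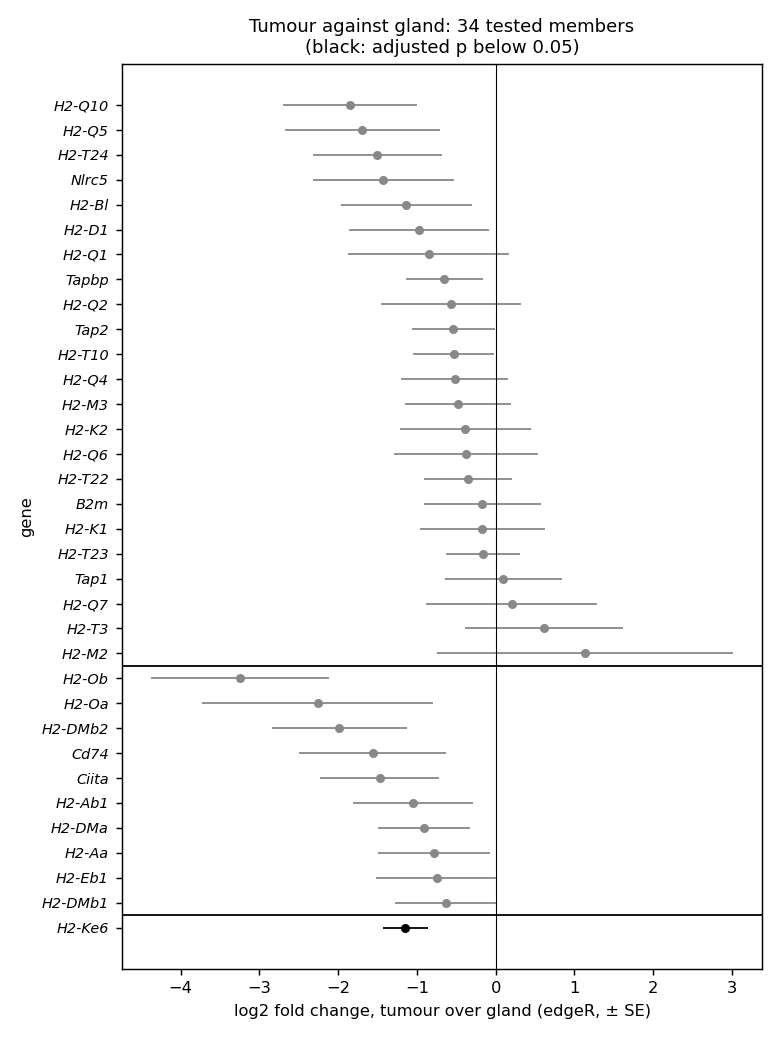
Log2 difference, tumour minus gland, of each tested member with a bar of 1 standard error on each side, from edgeR's quasi-likelihood fit over all genes. The class II members all lie below 0, from −3.25 to −0.63, and H2-Ke6 is the single member past the adjusted threshold.

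The class II transactivator and the invariant chain were again high in glands 2 and 3. Ciita measured 4.25, 28.6, 26.4 and 2.99 CPM in the glands and 5.76, 5.33, 0.791, 3.66, 13.1 and 4.99 CPM in the tumours (log2 difference −1.47, SE 0.75, edgeR adjusted p = 0.191). Cd74 measured 380.1, 752, 701 and 57.5 CPM in the glands and 236, 151, 11.4, 9.72, 296 and 256 CPM in the tumours. All 6 tumours lay below glands 1 to 3 for Cd74, and tumours 3 and 4 also lay below gland 4. Its log2 difference was −1.56 (SE 0.93, edgeR adjusted p = 0.255).

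The chains of the I-A and I-E molecules, which carry the peptide to the surface, were spread as widely. H2-Aa, the I-A alpha chain, measured 160.3, 371, 397 and 58.8 CPM in the glands and 205, 112, 34.2, 33.9, 365 and 108 CPM in the tumours. H2-Ab1, the I-A beta chain, lay between 31.9 and 228 CPM in the glands and 10.2 and 169 CPM in the tumours. H2-Eb1, the I-E beta chain, lay between 30.1 and 274 CPM in the glands and 17.0 and 279 CPM in the tumours. Tumour 5, the highest tumour in all 3, lay within the range of the glands for H2-Aa and H2-Ab1 and just above it for H2-Eb1. The log2 differences were −0.78 (SE 0.71), −1.05 (SE 0.76) and −0.75 (SE 0.77), with edgeR adjusted p of 0.448, 0.340 and 0.502.

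H2-DM molecules exchange the invariant chain fragment for peptide, and H2-O molecules hold H2-DM back, chiefly in B cells. H2-DMa lay between 5.09 and 31.9 CPM in the glands and 3.85 and 21.7 CPM in the tumours, and H2-DMb1 between 4.01 and 16.9 and between 1.61 and 14.5 CPM. H2-DMb2, a second beta chain, measured 12.0, 51.5, 50.7 and 2.73 CPM in the glands and 9.59, 4.08, 1.46, 1.53, 20.3 and 7.30 CPM in the tumours. Its unadjusted p was 0.0404 and its edgeR adjusted p 0.132, with a log2 difference of −1.99 (SE 0.86).

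H2-Oa and H2-Ob, the alpha and beta chains of H2-O, were under 1 CPM in all but 3 libraries. H2-Oa measured 0.713, 12.9, 11.9 and 0.0636 CPM in the glands and 0.0685, 0.620, 0.0989, 0.0693, 6.83 and 0.223 CPM in the tumours. H2-Ob measured 0.770, 16.9, 15.7 and 0.191 CPM in the glands and 0.754, 0.348, 0.346, 0.173, 3.13 and 0.530 CPM in the tumours. Both were high in glands 2 and 3 and, among tumours, in tumour 5. The log2 difference of H2-Ob was −3.25 (SE 1.13) with an unadjusted p of 0.015 and an edgeR adjusted p of 0.0742, and that of H2-Oa was −2.26 (SE 1.47) with 0.293. Without gland 4 the adjusted p of H2-Ob was 0.0437, and without tumour 5 it was 0.0346, with 0.0373 for H2-Oa. Without glands 2 and 3 the differences were 0.83 for H2-Ob and 1.70 for H2-Oa, with neither called.

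Markers of other cells also differed between libraries, and not always as the members did. Gland 1 and tumour 1 had class I heavy chain sums of 2434 and 2464 CPM, with B cell marker sums of 13.8 and 8.09 CPM. The summed level of 9 B cell markers was 412 and 444 CPM in glands 2 and 3 and 153 CPM in tumour 5, against 2.29 to 15.3 CPM in the other libraries. Cr2, which follicular dendritic cells also express, gave 82.5 CPM of the sum in tumour 5. The summed level of 12 T and NK cell markers was 661 and 524 CPM in glands 2 and 3, 96.1 CPM in tumour 5 and 2.86 to 22.3 CPM elsewhere. Of these, 0 of 9 B cell markers and 1 of 12 T and NK cell markers (Trac, lower) were called by edgeR, beside 15.1% of all genes. At an unadjusted p of 0.05 edgeR counted 5 of the 9 and 8 of the 12, beside 33.4% of all genes. Their median log2 differences, tumour minus gland, were −3.19 and −3.50. Cd3e and Cd8a, which mark T cells, had a count of 0 in gland 4. The 4 lymph node stroma markers summed to 409 and 428 CPM in glands 2 and 3, and to 9.42 and 2.03 CPM in glands 1 and 4. In the tumours they lay between 1.47 and 42.2 CPM, highest in tumour 5. The 7 markers of all leukocytes summed to 235, 1227, 1134 and 52.9 CPM in the glands. In the tumours they summed to 190, 101, 98.3, 103, 464 and 428 CPM. edgeR called 0 genes of the stroma and leukocyte lists, beside 15.1% of all genes, and their median log2 differences were −4.34 and −1.35.

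The 9 dendritic cell markers were high in the same libraries as the B and T cell markers. They summed to 148 and 149 CPM in glands 2 and 3 and to 73.5 CPM in tumour 5, against 37.0 and 25.3 CPM in glands 1 and 4 and 7.49 to 59.6 CPM in the other tumours, lowest in tumours 3 and 4. edgeR called 1 of the 9 (Siglech, lower), beside 15.1% of all genes, and their median log2 difference was −1.13. Ccr7, which B and T cells also express, gave 80.3 CPM of the sum in gland 2, and Itgax gave 37.8 CPM of it in tumour 5.

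The 10 macrophage markers summed to between 266 and 846 CPM in the glands and between 463 and 1380 CPM in the tumours. edgeR called 1 of the 10 (Cd14, higher), beside 15.1% of all genes, and their median log2 difference was 0.03. Cd14 alone gave 1061 of the 1320 CPM in tumour 3. The other 9 markers, summed apart from Cd14 after the data were seen, gave 794, 665, 708 and 242 CPM in the glands and 494, 231, 258.7, 231, 766 and 1074 CPM in the tumours. Tumours 2, 3 and 4 and gland 4 were then the lowest. The part of these cells in the levels of class I and class II was not tested.

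**Figure D4:**
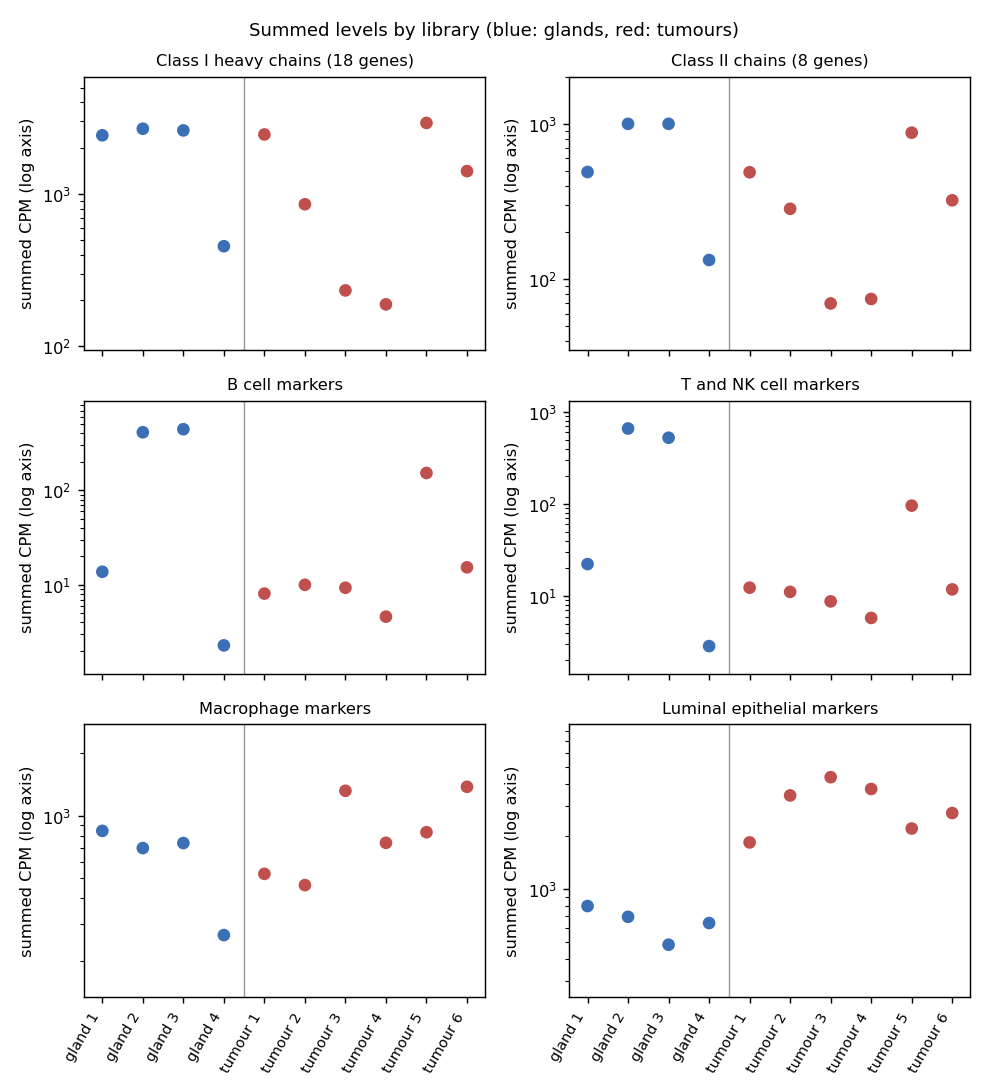
Summed CPM per library, on log10 axes, of the class I heavy chains tested (18 genes), the class II chains tested (8 genes) and of the markers of B cells, T and NK cells, macrophages and luminal epithelium. The class II sum ranges from 69.7 CPM in tumour 3 to 1003 CPM in gland 3, and the B and T cell sums are highest in glands 2 and 3 and in tumour 5, while Cd14 gives 1061 of the 1320 CPM of macrophage markers in tumour 3.

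The summed heavy chains of class I were 2434, 2688, 2620 and 454 CPM in the glands and 2464, 857, 233, 189, 2933 and 1416 CPM in the tumours. The summed chains of class II were 491, 1002, 1003 and 133 CPM in the glands and 489, 284, 69.7, 74.5, 879 and 322 CPM in the tumours. Class II over class I lay between 0.202 and 0.383 in the glands and between 0.198 and 0.395 in the tumours, so the ranges overlapped.

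Ratios of counts within a library, which need no scaling between libraries, were compared for 9 pairs of members, chosen after their values were seen. H2-D1 over H2-K1 was 3.23, 2.54, 2.63 and 2.24 in the glands and 1.50, 1.61, 1.11, 0.777, 1.47 and 2.12 in the tumours. Every tumour lay below every gland in this ratio, with a mean log2 difference of −0.95. The two-sided exact permutation p was 0.00952, the smallest that 210 arrangements allow. After Benjamini-Hochberg adjustment over the 9 pairs it was 0.0857, which does not pass. That adjustment does not cover the choice of the pairs from these same data, so the p-values of the ratios are descriptive only. Because H2-D1 and H2-K1 are close copies, the share of reads given to each is uncertain.

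H2-Eb1 over Cd74 was 0.424, 0.364, 0.367 and 0.524 in the glands and 0.565, 0.596, 1.50, 2.11, 0.940 and 0.410 in the tumours, highest in tumours 3 and 4. Its mean log2 difference was 1.05, with an exact permutation p of 0.0286 and 0.129 after adjustment, again for a pair chosen from these data. H2-DMb2 over H2-DMb1 was 3.20 and 3.003 in glands 2 and 3, 0.835 and 0.683 in glands 1 and 4, and between 0.612 and 1.40 in the tumours. The other 6 pairs, along with this one, had exact permutation p between 0.133 and 0.962.

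**Figure D5:**
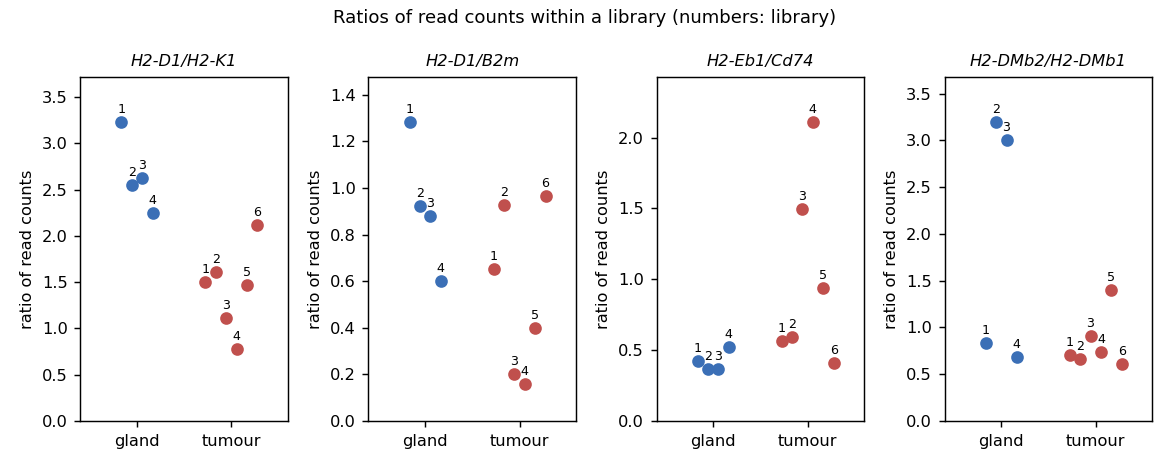
Ratios of the counts of 2 members within each library, on linear axes that start at 0, for 4 of the 9 pairs. H2-D1 over H2-K1 lies between 2.24 and 3.23 in the glands and between 0.777 and 2.12 in the tumours, and H2-DMb2 over H2-DMb1 is above 3 in glands 2 and 3.

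H2-Ke6, the enzyme gene that shares only the name of the region, was the single member that differed. It measured 52.4, 32.1, 35.3 and 43.2 CPM in the glands and 22.8, 26.0, 11.7, 13.3, 16.7 and 19.9 CPM in the tumours. The groups did not overlap, as for 7.50% of all genes in that direction, and 8.19% of all genes fell by the test. H2-Ke6 fell by 1.15 on the log2 scale (SE 0.28, edgeR adjusted p = 0.0239). The call was lost under upper-quartile scaling, without gland 1, without tumour 4 and without glands 2 and 3, with an adjusted p of up to 0.0817.

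The 7 members too low to test were H2-M10.1, H2-M10.2, H2-M10.3, H2-M11, H2-M5 and H2-M9 of class I and H2-Eb2 of class II. The class I genes had 6, 3, 6, 26, 100 and 81 counts over the 10 libraries in that order. H2-Eb2, a second beta chain gene beside H2-Eb1, had 242 counts, of which 157 were in gland 2, 42 in gland 3 and 33 in tumour 5. These are the 3 libraries with the highest B cell marker sums.

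Genes that act before or beside the members were described from written lists. Of 14 genes of peptide supply and loading for class I, 0 rose and 1 fell, beside 6.89% and 8.19% of all genes tested. Lnpep, an aminopeptidase, fell by 1.15 on the log2 scale (SE 0.32, edgeR adjusted p = 0.0369). Psmb8, Psmb9 and Psmb10, the catalytic subunits of the immunoproteasome, had log2 differences of 0.07, −0.19 and −0.43 with adjusted p of 0.95, 0.883 and 0.443. Psmb8 reached 217 CPM in tumour 5, which was also the highest tumour for Tap1. The median over the list was 0.04.

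Of 18 genes of class II processing and regulation tested, 1 rose and 0 fell, beside 6.89% and 8.19% of all genes tested. Cd9, a tetraspanin found with class II at the surface and widely on epithelial cells, rose by 2.38 on the log2 scale (SE 0.46, edgeR adjusted p = 0.00991). Ctss, the protease that trims the invariant chain, had a log2 difference of 0.96 (adjusted p = 0.33), Ifi30, the lysosomal thiol reductase, 0.51 (0.487), and Rfx5, a subunit of the factor that binds class II promoters, −0.22 (0.696). The median was 0.23, beside 0.17 over all genes and −1.26 over the class II members.

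Interferon gamma signalling had 0 of 13 genes higher and 1 lower, beside 6.89% and 8.19% of all genes tested. The median over the list was −0.46, beside 0.17 over all genes. At an unadjusted p of 0.05 edgeR counted 3 of the 13, beside 33.4% of all genes. Jak1, a kinase of the receptor, fell by 1.24 (SE 0.29, edgeR adjusted p = 0.0188). Irf1, a transcription factor induced by the pathway, had a log2 difference of −0.58 with an adjusted p of 0.285. Ifng itself was too low to test, at up to 0.754 CPM. The calls of Lnpep and Jak1 were lost in 12 and 3 of 21 alternatives, and that of Jak1 only where gland 2, gland 3 or both were left out.

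Of 8 MHC-like genes outside H2 tested, 5 fell and 1 rose, beside 8.19% and 6.89% of all genes tested. Cd1d1, which presents lipids to NKT cells, measured 186, 108, 108 and 13.5 CPM in the glands and 3.56, 10.1, 6.58, 10.3, 2.16 and 26.4 CPM in the tumours. It fell by 3.40 on the log2 scale (SE 0.75, edgeR adjusted p = 0.0159), and its call was lost without gland 1 or without glands 2 and 3 (adjusted p of up to 0.0733). Fcgrt, the neonatal Fc receptor heavy chain, fell by 2.25 (SE 0.63, adjusted p = 0.0364), and Procr, the protein C receptor, fell by 2.35 (SE 0.70, adjusted p = 0.0440). Mr1, which presents vitamin metabolites, fell by 1.31 (adjusted p = 0.0441) and Hfe, a regulator of iron uptake, fell by 1.49 (adjusted p = 0.0458), both named after their values were seen. These molecules pair with B2m apart from Procr, and B2m itself had no call. Beside them, the 7 adipocyte markers summed to between 2382 and 17326 CPM in the glands and between 6.41 and 857 CPM in the tumours. Of 7 endothelial markers, 3 fell (Cdh5, Kdr and Tek), beside 8.19% of all genes, while Pecam1 had a log2 difference of 0.39 with no call. The endothelial markers summed to between 166 and 220 CPM in the glands and between 44.0 and 443 CPM in the tumours, highest in tumour 1. The part of those cells in these results was not tested.

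Ulbp1, a ligand of the activating receptor NKG2D, rose by 2.78 (SE 0.86, edgeR adjusted p = 0.0497), from 0.572 to 3.28 CPM in the glands to 1.51 to 39.9 CPM in the tumours. Its call held in 6 of 21 alternatives, those of Fcgrt, Procr, Mr1 and Hfe in 13, 10, 9 and 9. Of 9 costimulatory and checkpoint ligands tested by edgeR, 0 were called, beside 15.1% of all genes. Their median was −0.75, and 2 had an unadjusted p under 0.05, beside 33.4% of all genes.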

How the data were processed

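RNA-seq of whole glands and tumours was analysed from the authors' deposited table, which holds unscaled whole-number counts for 38279 symbols in 10 libraries. Libraries were prepared with a NEBNext Ultra kit, per the labels' protocols. Salmon 1.2.0, DESeq and the build mm9 stand in the submitters' processing notes, with no roles, so how reads shared by near-identical H2 genes were divided is not known.

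Genes passing filterByExpr (20101) were scaled by TMM and fitted with edgeR 4.0.16 (R 4.3.3), using glmQLFit and glmQLFTest, and p-values were adjusted by Benjamini-Hochberg over all of them, with a threshold of 0.05. A standard error is the log2 difference over the square root of F. Alternatives were DESeq2 1.42.0, limma-voom (limma 3.58.1), other scalings and filters, age as a covariate, and leaving out libraries. edgeR was tried on counts simulated at the spread of these data and at a low spread, DESeq2 and limma-voom only at the low spread. The outcomes are not given here. Count ratios, of pairs chosen after their values were seen, were compared by two-sided exact permutation over libraries. No 2 libraries of a group agreed within sampling noise.

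The members, the lists and the rule for the genes named were chosen with earlier results of these data known. Named whatever their test were the main class I and class II genes, the 5 other class I members of highest mean CPM, 9 written pathway genes (1 of them not reported here), and up to 3 called genes per list and direction. Sequences are RefSeq's, GRCm38.p6, and were matched by symbol; the files' own build differs, so no other coordinates are given. The 3 epithelium samples were left out as another material.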

Additional observations from a re-analysis of the deposited data

Results flagged for a closer look

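Dixon's test for a single stray library was run on 102 groups, the glands and the tumours of 51 genes, and 12 groups had a library beyond its 95% limit. Chance flags about 1 in 20 groups, and members that move together are not independent. In 11 of the 12 the library was gland 4, the oldest gland, below the other 3.

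Among the heavy chains of class I, gland 4 measured 91.1 CPM of H2-K1 (409 to 498 in the other glands), 204 CPM of H2-D1 (1268 to 1322) and 15.9 CPM of H2-K2 (98.4 to 113). It measured 36.2 CPM of H2-Q4 (155 to 194), 6.42 CPM of H2-Q6 (59.5 to 82.2), 3.12 CPM of H2-Q2 (36.2 to 41.5) and 3.62 CPM of H2-Q10 (37.1 to 45.1). It measured 41.0 CPM of H2-T22 (117 to 135), 8.77 CPM of H2-T10 (26.2 to 29.9) and 1.97 CPM of H2-Bl (21.7 to 27.3). The single class II member was H2-DMb1, at 4.01 CPM against 14.3 to 16.9. Gland 4 also had 37.5% mitochondrial and 7.55% skeletal muscle counts, and their part in these levels was not tested.

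In the tumours the stray library was tumour 5, with 173 CPM of H2-M2 against 0.148 to 1.33 CPM in the other 5.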

How the results depend on the processing

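The genes called over the whole table numbered 3030, and 5623 in DESeq2, 1899 with age as a covariate, 1010 without glands 2 and 3 and 4640 without tumours 1 and 6 and gland 4. Leaving out single libraries gave 1053 (without gland 1) to 3521, and it moved the count over 1.5 times without gland 1, 2 or 3 or tumour 2 or 4. The class I members called were 0, and 1 without tumours 1 and 6 (H2-T24), 1 without tumours 1 and 6 and gland 4 (H2-T24, log2 difference −3.34, edgeR adjusted p = 0.00872), and 0 to 1 without single libraries. The class II members called were 0, and 1 in DESeq2 (H2-Ob, −3.28, DESeq2 adjusted p = 0.0144), and 0 to 2 without single libraries. The class I median ran from −0.99 to −0.30 and the class II median from −1.88 to −0.90 without single libraries.

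Without glands 2 and 3 the medians were 0.066 and 0.061, and log2 differences turned positive, with no call, for B2m (0.42), H2-K1 (0.37), H2-K2 (0.16), H2-Q4 (0.054), H2-Q6 (0.33), H2-T22 (0.066), H2-T23 (0.36), Ciita (0.62), H2-Aa (0.37), H2-Eb1 (0.14), H2-Oa (1.70), H2-Ob (0.83), Psmb9 (0.69), Irf1 (0.068) and Rfx5 (0.15). Upper-quartile scaling gave 0.034 for B2m, 0.057 for H2-K1 and 0.040 for H2-T23. limma-voom gave −0.073 for Tap1 and −0.090 for Psmb8, and age as a covariate −0.76 and −0.78. Without tumours 1 and 6 and gland 4 both stood at −0.16, and without tumours 1 and 6 Psmb9 stood at 0.11. Without single libraries the ranges that crossed 0 were −0.75 to 0.056 for B2m, −0.59 to 0.080 for H2-K1, −0.53 to 0.046 for H2-T23, −0.69 to 0.52 for Tap1, −0.57 to 0.33 for Psmb8 and −1.24 to 0.077 for Psmb9. For these shifts the cause was not tested.

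Of 40 genes followed over 21 alternatives, 23 kept their direction throughout. No paired analysis was possible because the labels give tumours and glands no shared numbers. Levels under 1 CPM, as of H2-Oa and H2-Ob in most libraries, rest on few counts.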

Other observations

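The pseudogene H2-Ea-ps, which stands for the I-E alpha chain in strains that do not make it, was counted in every library. The glands had 6091, 19885, 6131 and 885 counts, and the tumours 2775, 6758, 1168, 1916, 17145 and 4300. Scaled, it lay between 56.3 and 341 CPM in the glands and between 28.9 and 319 CPM in the tumours, highest in glands 2 and 3 and tumour 5 and lowest in tumours 3 and 4, as the class II members were. The labels name no strain, so the haplotype of the mice is not known here.

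Raet1d and Raet1e, which encode ligands of NKG2D and were singled out after their values were seen, stood at 12.8 and 14.6 CPM in tumour 5. In the other 9 libraries they were at no more than 0.669 and 0.836 CPM.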
